A study of Solanum lycopersicum with 36 samples.

Results

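RNA-Seq libraries of N-starved shoots of the tomato mutant *sdg33* were compared with those of wild-type (WT) shoots under the same treatment, across all genes measured. The comparison rests on 6 of the 36 libraries of the series, 3 of *sdg33* and 3 of WT, both at -N. WT was the cultivar CastlemartII, and the mutant was the CRISPR line *sdg33.1*, the only *sdg33* line used for RNA-Seq, so a difference of genotype and a difference of that line cannot be told apart. Plants of both genotypes were grown in hydroponic culture, kept for 2 days in medium without N and then moved for 5 h to fresh medium, again without N (-N) or with 1.2 mM KNO3, 0.8 mM calcium nitrate and 0.2 mM ammonium phosphate (+N). In the medium without N these salts were replaced by sulphates and potassium phosphate, so supply of sulphate rose where supply of N fell, in both genotypes. For each library 3 plants were pooled, and shoots and roots were taken separately. For context, the same genotypes were compared in 6 shoot libraries at +N and 6 root libraries at -N, and *sdg33* was set beside the CRISPR mutant *sdg34* at -N.

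SDG33 is a histone lysine methyltransferase and a homolog of Arabidopsis SDG8. Enzymes of this family add methyl groups to lysines of histone H3 along genes that are being transcribed, a mark that in plants is linked to active transcription. N starvation in leaves is known for lower expression of genes for photosynthesis and nitrate assimilation, and return of nitrate restores much of it. The comparison at -N asks how far the shoot transcriptome without SDG33 departs from WT before any N is given back.

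The deposited values are whole numbers left by full-quantile normalization and are called normalized counts here. Sorted by size, all 36 libraries held the same values, so the number of reads per library is unknown and precision was taken from the spread between libraries. Pearson's r between libraries on the log2(value + 1) scale was 0.944 to 0.967 among the 3 WT libraries, 0.980 to 0.984 among the 3 *sdg33* libraries and 0.875 to 0.914 between the genotypes, where genes are not independent replicates. The WT libraries at -N had the widest spread of the 4 shoot groups, with a median SD across genes of 0.316 on the log2 scale against 0.164 in *sdg33* at -N, 0.194 in WT at +N and 0.229 in *sdg33* at +N. The labels give no batch or harvest order. As a check of the organ, 4 of the 6 genes that the study names as light-harvesting or photosystem genes stayed at 6 or below in all 6 roots at -N, and the other two reached at most 228 (*Solyc01g105050.3*) and 190 (*Solyc01g087040.2*). In the shoots *Solyc01g105050.3* ranged from 10765 to 30399.

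The transcript of *SDG33* itself (*Solyc04g057880.3*) had normalized counts of 435, 562 and 404 in WT and 136, 184 and 208 in *sdg33* at -N. All mutant libraries lay below all WT libraries, although reads over an edited gene still count where its transcript persists. The log2 fold change, *sdg33* over WT, was -1.41 (SE 0.18, adjusted p = 2.10e-05). The adjusted p-values come from limma, fitted to log2(value + 1), after Benjamini-Hochberg adjustment over all genes tested. The paralog *SDG34* (*Solyc06g059960.3*) had 127, 152 and 194 in WT and 106, 115 and 134 in *sdg33*, and these libraries overlapped (log2 fold change -0.40, SE 0.21, adjusted p = 0.131). For *SDG33*, the log2 fold change was -0.59 in shoots at +N (adjusted p = 0.0172) and -0.29 in roots at -N (adjusted p = 0.293). The test between organs passed (-1.12, adjusted p = 0.00394), that between -N and +N did not (adjusted p = 0.115). In *sdg34* shoots at -N, *SDG33* was below WT as well (-0.85, adjusted p = 0.00113), so its decrease was not particular to *sdg33*.

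Of 20713 genes tested, 804 were higher and 742 were lower in *sdg33* shoots at -N, taking an adjusted p under 0.05 and an absolute log2 fold change of at least 2, that is a 4-fold difference on the log2(value + 1) scale, as a called gene. These are 3.88% and 3.58% of the genes tested. With the adjusted p alone, 5365 genes (25.9%) were higher and 4669 (22.5%) lower. The median log2 fold change over all genes was 0.05. Since full-quantile normalization gives every library the same sorted values, neither this median nor the balance of both directions says whether total expression shifted. The 3 libraries of one genotype lay wholly above those of the other for 786 of the 804 and 733 of the 742 called genes. Over all genes tested this held for 6125 (29.6%) in the higher direction and 5451 (26.3%) in the lower. Called genes were spread over all chromosomes, with 2.82% (chromosome 8) to 4.87% (chromosome 12) of the tested genes called higher and 2.96% (chromosome 8) to 4.4% (chromosome 11) called lower. The counts depended on how low values were treated. With a pseudocount of 10 in place of 1, 415 genes were called higher and 470 lower, and with a mean of at least 50 over the fitted libraries required, 456 and 492.

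Gene groups were built from keywords in the descriptions of the study's supplementary lists, which hold 2013 genes, and 8 genes without such a description that the study's text names were added by identifier, 4 to the light-harvesting, 3 to the SAUR and 1 to the nitrogen group. The study had selected these genes by tests on these same libraries, so a group's count is not independent evidence of its direction, and its share called is above the background by construction. In bulk shoots, fewer cells of a type and less RNA per cell cannot be told apart, and this holds for every group below.

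**Figure D1:**
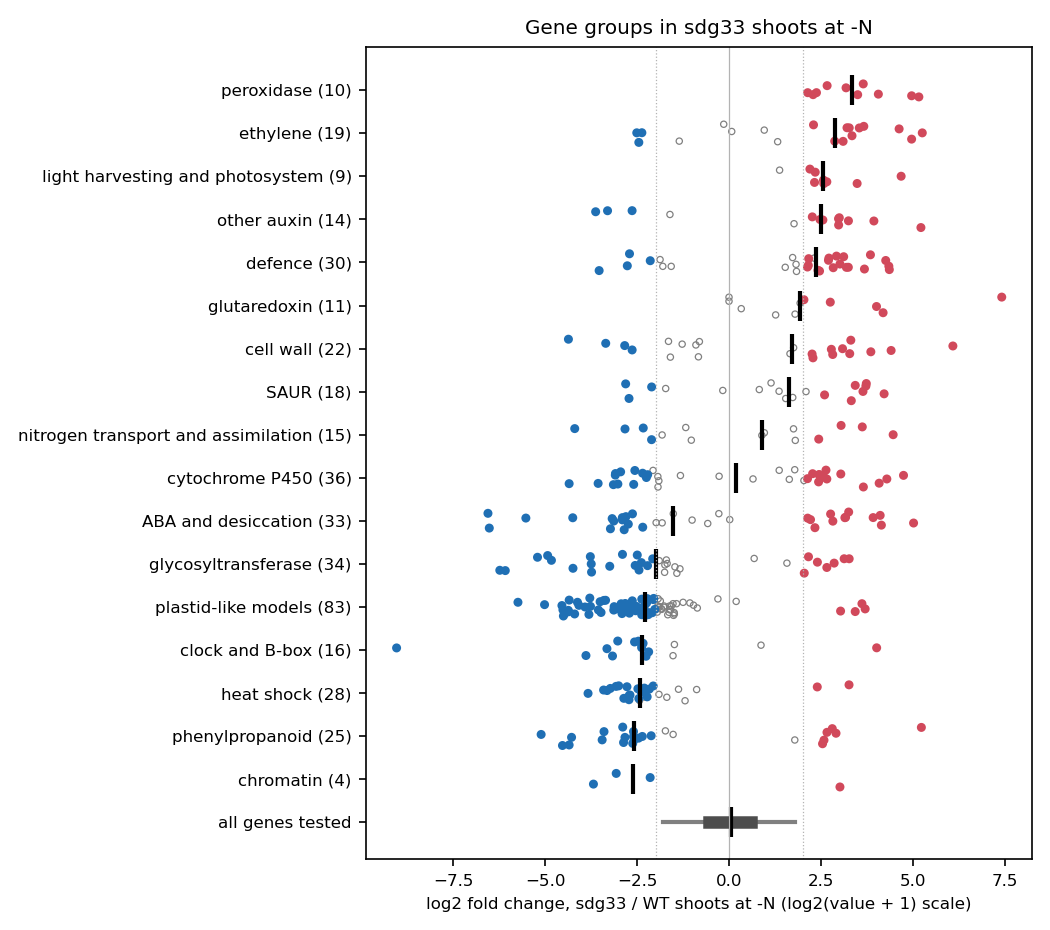
Log2 fold change of *sdg33* over WT shoots at -N (horizontal axis) for the tested members of each gene group, with the number tested in parentheses. Filled points are called genes, red higher and blue lower, open points are other members, black ticks are medians, dotted lines mark -2 and 2, and the bottom bar spans all genes tested from the 5th to the 95th percentile (thin, -1.79 to 1.81) and the 25th to the 75th (thick, -0.55 to 0.60). Peroxidase and light-harvesting members lie to the right of 0, and most clock, heat-shock and plastid-like members lie to the left.

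Genes for light harvesting and the photosystems were higher in *sdg33*. All 9 members were tested, 8 were called higher, none was called lower, and the median log2 fold change was 2.57. Their summed values made up 0.127% to 0.172% of each WT library at -N and 0.526% to 0.682% of each *sdg33* library, so the groups did not overlap. At +N the corresponding shares were 0.400% to 0.479% in WT and 0.832% to 0.902% in *sdg33*.

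Among the chlorophyll a-b binding proteins, which hold the pigments of the antenna, 4 neighbouring genes of chromosome 2 moved together. *Solyc02g070970.1* had 4530, 4508 and 7267 in WT and 29041, 29958 and 21550 in *sdg33* (log2 fold change 2.33, SE 0.18, adjusted p = 1.43e-07). *Solyc02g070990.1* had 816, 583 and 1783 in WT and 12602, 12567 and 7561 in *sdg33* (3.49, SE 0.30, adjusted p = 4.97e-07). For both, the mutant libraries lay far above WT, and replicate 3 was the highest WT library and the lowest *sdg33* library. The neighbours *Solyc02g070980.1* and *Solyc02g071000.1* had log2 fold changes of 2.20 and 2.66. These genes carry the same description and stand side by side, so how reads were shared among them is uncertain.

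The other antenna genes lay elsewhere in the genome. *Solyc08g067320.2*, which the study assigns to the antenna of photosystem II, had 468, 772 and 450 in WT and 3702, 3128 and 2958 in *sdg33* (2.57, SE 0.18, adjusted p = 8.93e-08). *Solyc06g069730.3*, assigned to the antenna of photosystem I, had 1844, 1774 and 1818 in WT and 10542, 9706 and 7650 in *sdg33* (2.35, SE 0.12, adjusted p = 2.58e-09). The 1 member that was not called, *Solyc01g105050.3*, was already high in WT, with 10765, 11611 and 11614, and rose to 29327, 30399 and 28517 (1.38, SE 0.12, adjusted p = 5.16e-07).

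The largest change of the group was in *Solyc01g087040.2*, a PsbP-like gene. In Arabidopsis, PsbP proteins belong to the water-splitting side of photosystem II. It had 204, 182 and 139 in WT and 4567, 4733 and 4122 in *sdg33*, 25.6 times the WT mean (4.68, SE 0.14, adjusted p = 5.64e-11). The second photosystem II gene, *Solyc11g008480.2*, was low in both genotypes but separated as clearly, with 44, 45 and 38 in WT and 282, 254 and 238 in *sdg33* (2.58, SE 0.20, adjusted p = 1.67e-07).

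Genes that serve chlorophyll and its proteins, named here because their difference depended on N, moved the same way. *Solyc12g013710.2* encodes the light-dependent protochlorophyllide oxidoreductase, which carries out a late step of chlorophyll synthesis. It had 1313, 1477 and 1174 in WT and 18016, 17632 and 16451 in *sdg33* (3.72, SE 0.12, adjusted p = 7.68e-11). *Solyc02g087400.1*, whose Arabidopsis homolog is the chloroplast signal recognition particle subunit that carries antenna proteins to the thylakoid, had 644, 812 and 802 in WT and 6257, 5647 and 5821 in *sdg33* (2.98, SE 0.11, adjusted p = 2.34e-10).

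At +N the antenna and photosystem differences were smaller, with a median log2 fold change of 1.14 and 1 called member. The difference between the -N and the +N effect passed an adjusted p of 0.05 for 8 of 9 members, against 1.99% of all genes tested. The study's text names 6 of these genes from a cluster of genes built on these libraries, so their count is not independent evidence. Of the other 3, the neighbours on chromosome 2, 2 passed. *Solyc12g013710.2* had 14560, 11966 and 16249 in WT at +N and 21854, 21854 and 22676 in *sdg33* at +N, a log2 fold change of 0.65, which was 3.08 below that at -N (SE 0.18, adjusted p = 9.20e-07). WT at -N was thus the lowest of the 4 shoot groups for these genes. Without *sdg33* replicate 1 at -N, 4 of the 9 members passed the test of the N dependence, and without replicate 2, 5. The count of members called at -N was 7 or 8 with any 1 library left out.

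**Figure D2:**
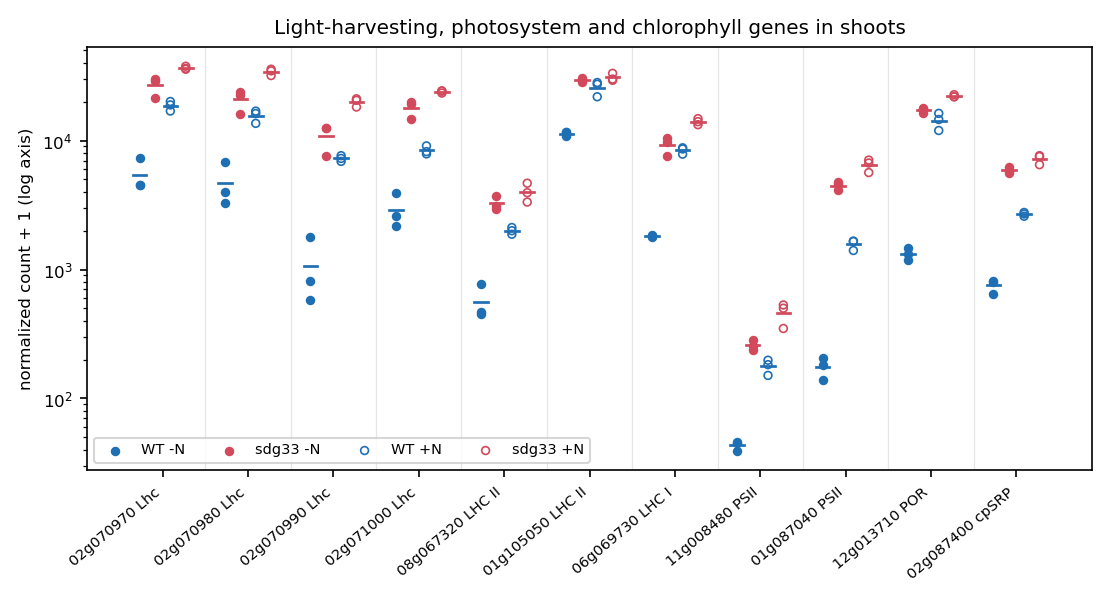
Normalized count + 1 per library (log axis) for the 9 light-harvesting and photosystem genes, protochlorophyllide oxidoreductase (POR) and the chloroplast signal recognition particle gene (cpSRP) in WT (blue) and *sdg33* (red) shoots at -N (filled) and +N (open), each point 1 library and each bar the mean of 3. For every gene the 3 WT libraries at -N are the lowest, for example 139 to 204 for *Solyc01g087040.2* against 4122 to 4733 in *sdg33*.

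The increases named next were the largest among described genes with a mean of at least 100 in *sdg33* and libraries that do not overlap. *Solyc04g007000.1*, an AP2/B3 transcription factor whose Arabidopsis homolog RAV1 restrains growth, had 6, 1 and 4 in WT and 860, 970 and 592 in *sdg33* (7.59, SE 0.39, adjusted p = 3.10e-09). *Solyc07g066330.3*, a NAC transcription factor, had 17, 26 and 22 in WT and 2282, 1975 and 1851 in *sdg33* (6.50, SE 0.23, adjusted p = 1.10e-10). *Solyc08g079230.1*, a lipid-transfer protein gene, had 29, 55 and 12 in WT and 4273, 6454 and 3445 in *sdg33* (7.35, SE 0.48, adjusted p = 3.04e-08). In WT roots at -N the NAC gene stood at 917 to 1058 and the lipid-transfer gene at 2232 to 2999, so both genes were well expressed in another organ of WT.

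The remaining increases of this size were of mixed function. *Solyc03g006490.3*, a glutaminase-domain protein, had 46, 38 and 26 in WT and 4428, 4964 and 3646 in *sdg33* (6.88, SE 0.28, adjusted p = 3.18e-10). *Solyc03g083730.1*, a pectin methylesterase inhibitor, had 47, 12 and 57 in WT and 2360, 3464 and 1403 in *sdg33* (6.09, SE 0.48). *Solyc06g066420.3*, described as oxidative stress 3, had 8, 0 and 0 in WT and 304, 270 and 212 in *sdg33* (6.97, SE 0.65). In *Solyc02g068170.1*, a low-quality gene model for a linker protein, WT had 3, 1 and 0 and *sdg33* 190, 308 and 152. Of all 804 called higher, 315 had a WT mean under 10 and 23 were listed at 0 in all 3 WT libraries, and their fold changes depend on the pseudocount.

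The genes named for the largest decreases had a WT mean of at least 100, as the choice required, which left out a late embryogenesis abundant protein gene with a WT mean of 96 and a log2 fold change of -6.56 (*Solyc10g008040.3*, named after its value was seen). *Solyc11g068390.1*, of the B-box zinc finger class, had 618, 384 and 618 in WT, while every *sdg33* library listed it at 0. *Solyc07g064410.1* had 3454, 2136 and 1254 in WT and 20, 19 and 15 in *sdg33* (-6.80, SE 0.29, adjusted p = 5.11e-10), and its Arabidopsis homolog is a desaturase of chloroplast lipids. *Solyc06g068130.3*, a tetratricopeptide repeat protein, had 3240, 2210 and 4177 in WT and 19, 28 and 47 in *sdg33* (-6.68, SE 0.33, adjusted p = 2.24e-09). In each of these the mutant kept about 1% of the WT mean or less, with ratios of the means of 0.00789 and 0.00976 for the last pair.

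Enzymes that modify hormones and small molecules were also among them. *Solyc10g007570.3*, a gibberellin 2-oxidase, which inactivates gibberellins, had 443, 273 and 144 in WT and 5, 0 and 6 in *sdg33* (-6.23, SE 0.70, adjusted p = 6.38e-06). The glycosyltransferase gene *Solyc10g085870.1* had 3232, 1946 and 2768 in WT and 42, 34 and 26 in *sdg33* (-6.24, SE 0.28), and *Solyc01g105350.2* had 2526, 1584 and 2097 and 22, 42 and 26 (-6.09, SE 0.28). *Solyc09g061730.2*, a late embryogenesis abundant protein, and *Solyc11g005310.1*, a RING-type protein, had log2 fold changes of -6.52 (SE 0.72) and -6.36 (SE 0.77). Groups that do not overlap were required of the 8 genes named for the largest decrease and of the 8 for the largest increase. Their separation is thus no result.

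Genes of the circadian clock and B-box zinc fingers were mostly lower in *sdg33*. The clock times gene expression to day and night, and in Arabidopsis the pseudo-response regulators, LUX and ELF4 are repressors that act from afternoon to night. Of 16 members tested, 12 were called lower and 1 higher, with a median log2 fold change of -2.37. With any 1 library at -N left out, the counts were still 12 and 1. The homolog of pseudo-response regulator PRR5, *Solyc03g081240.3*, had 6111, 6222 and 4124 in WT and 546, 606 and 647 in *sdg33* (-3.17, SE 0.15, adjusted p = 1.27e-09). The homolog of TOC1, *Solyc03g115770.3*, had 121, 128 and 109 in WT and 16, 31 and 22 in *sdg33* (-2.37, SE 0.30, adjusted p = 2.06e-05). In both genes the highest mutant library lay below the lowest WT library.

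Genes assigned to LUX, ELF4 and FKF1 were lower as well. *Solyc06g005680.3*, whose Arabidopsis homolog is LUX, had 282, 179 and 312 in WT and 28, 24 and 21 in *sdg33* (-3.32, SE 0.28, adjusted p = 3.68e-07). *Solyc06g051680.1*, described as ELF4, had 814, 680 and 319 in WT and 115, 62 and 115 in *sdg33* (-2.57, SE 0.31, adjusted p = 1.29e-05). *Solyc01g005300.3*, homolog of FKF1, a blue-light receptor that tunes flowering to day length, had 2550, 2194 and 1400 in WT and 412, 432 and 464 in *sdg33* (-2.19, SE 0.21, adjusted p = 1.21e-06).

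Among the CONSTANS-like and other B-box genes, *Solyc12g006240.2* had 2634, 1930 and 1986 in WT and 252, 253 and 289 in *sdg33* (-3.03, SE 0.13, adjusted p = 7.98e-10). *Solyc09g074560.3* (-2.38), *Solyc07g053140.3* (-2.47), *Solyc06g063280.1* (-3.89) and the neighbours *Solyc07g045180.3* (-2.34) and *Solyc07g045185.1* (-2.26) also fell. The exception among the called members was *Solyc01g110180.3*, a B-box gene with 6, 0 and 0 in WT and 33, 34 and 24 in *sdg33* (4.02, SE 0.77, adjusted p = 6.47e-04). By the adjusted p alone, 2 members were higher and 13 lower. No member passed the test of a difference between -N and +N, where 8 members were called lower and the median log2 fold change was -2.33. Shoots of both genotypes were harvested 5 h after the transfer, and the time of day of each harvest is not given in the sources used here.

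Heat-shock proteins and their transcription factors were lower in *sdg33*. Of 28 members tested, 19 were called lower and 2 higher, and the median log2 fold change was -2.41. With a pseudocount of 10, 12 were called lower, and with a mean of at least 50, 10 of 13. The summed values of the group were 12334, 8123 and 11203 in the WT libraries and 2077, 1966 and 2423 in the *sdg33* libraries. Heat-shock factors switch on chaperone genes under heat and other stresses. *HsfA2* (*Solyc08g062960.3*), a factor that sustains this response, had 414, 616 and 516 in WT and 58, 52 and 70 in *sdg33* (-3.07, SE 0.30, adjusted p = 1.61e-06). *HsfA6a* (*Solyc09g082670.3*) and *HsfA6b* (*Solyc06g053960.3*) had log2 fold changes of -2.72 and -2.78, and *HsfA7* (*Solyc09g065660.3*) had -3.84 with a wide error (SE 0.94, adjusted p = 0.00385).

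Among the chaperones, the class I small heat-shock protein gene *Solyc06g076570.3* was the most abundant of those called, with 2390, 1357 and 3079 in WT and 175, 210 and 222 in *sdg33* (-3.41, SE 0.23, adjusted p = 4.94e-08). The homolog of Arabidopsis HSP101 (*Solyc03g115230.3*) had 743, 172 and 489 in WT and 74, 88 and 74 in *sdg33*. An HSP70 gene (*Solyc04g011440.4*) had 838, 285 and 646 in WT and 68, 96 and 140 in *sdg33*. WT replicate 2 was the lowest WT library in these chaperone genes. In the HSP70 gene *Solyc11g066100.2*, with 518, 68 and 290 in WT and 48 to 54 in *sdg33*, the adjusted p went from 0.0176 to 0.0901 without WT replicate 1 and to 0.0522 without WT replicate 3. The other HSP20-type and HSP70-type members called lower had log2 fold changes between -3.32 (*Solyc04g072160.3*) and -2.17 (*Solyc01g009220.3*).

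The 2 members called higher were not chaperones of the same kind. *Solyc07g055710.3* is *HsfA4b*, a heat-shock factor, with 34, 14 and 19 in WT and 124, 99 and 123 in *sdg33* (2.40, SE 0.44). *Solyc03g117590.3* encodes a DnaJ-domain partner of heat-shock proteins, with 27, 3 and 6 in WT and 98, 93 and 74 in *sdg33* (3.27, SE 0.62). At +N, 12 members were called lower and no member's difference passed the test between -N and +N. With WT replicate 2 at -N left out, 20 of 27 tested members were called lower, and 17 of 26 without replicate 1.

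**Figure D3:**
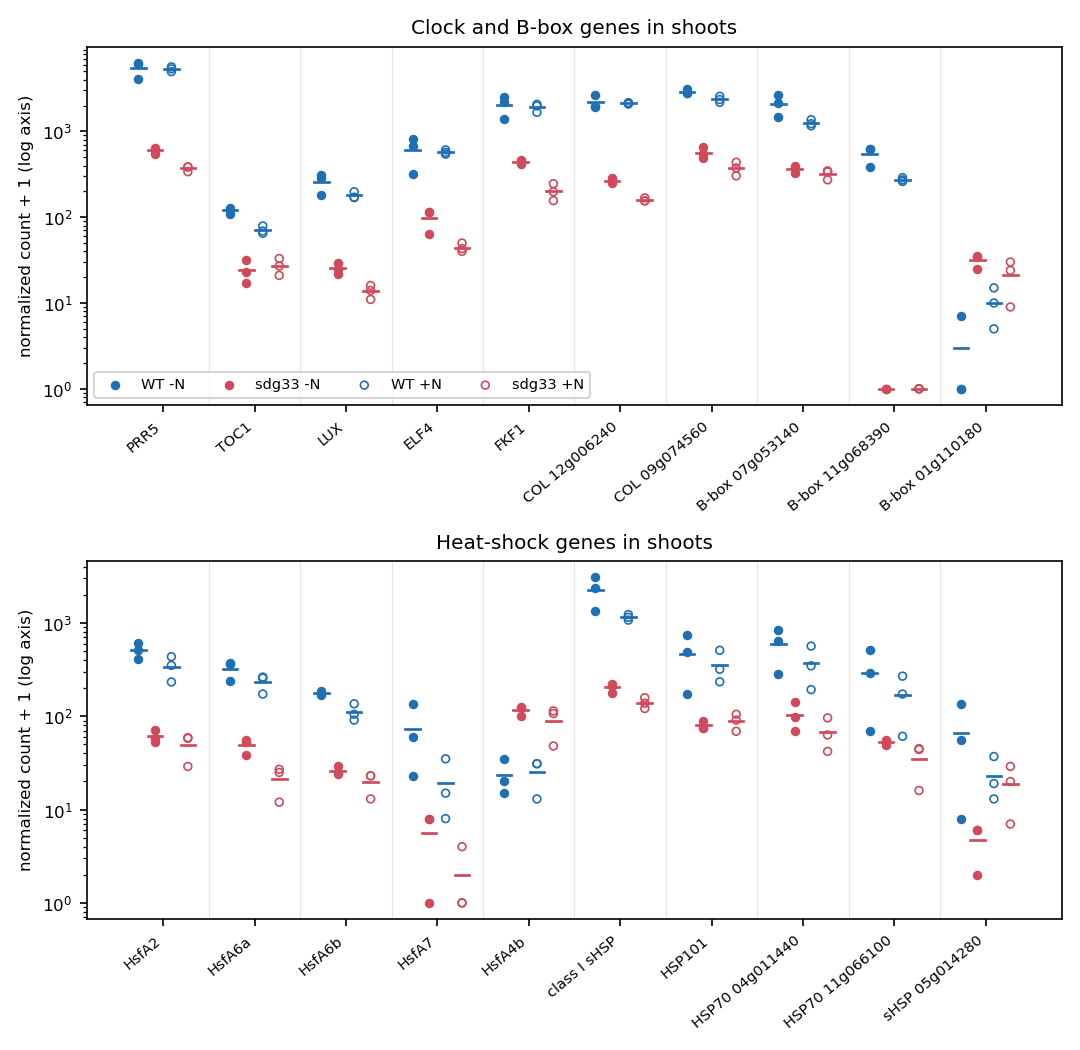
Normalized count + 1 per library (log axis) for 10 clock and B-box genes (top) and 10 heat-shock genes (bottom) in WT (blue) and *sdg33* (red) shoots at -N (filled) and +N (open), each point 1 library and each bar the mean of 3. Clock genes carry the names of their Arabidopsis homologs. *sdg33* lies below WT at -N in all but *Solyc01g110180.3* and *HsfA4b*, as in the PRR5 homolog with 546 to 647 against 4124 to 6222.

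Nitrogen genes moved in both directions. Of 15 members tested, 4 were called higher and 4 lower, with a median log2 fold change of 0.89, and leaving out 1 library gave 3 to 5 in each direction. Among the 7 members with a mean of at least 50, 1 was called higher and 4 lower and the median was -2.11, so the sign of the median depended on weakly expressed members. Nitrate reductase (*Solyc11g013810.2*), the enzyme that turns nitrate into nitrite, had 48874, 31735 and 19773 in WT and 4290, 4780 and 4156 in *sdg33* at -N (-2.83, SE 0.23, adjusted p = 3.24e-07). WT varied more than 2-fold, yet its lowest library was above 4 times the highest of *sdg33*. At +N it had 35396, 27322 and 35724 in WT and 19322, 17744 and 17510 in *sdg33* (-0.84, SE 0.23), and the effect at -N was larger by 1.99 on the log2 scale in the negative direction (SE 0.33, adjusted p = 0.00794).

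Among the transporters, *Solyc06g075510.3* had 5304, 4753 and 3052 in WT and 253, 184 and 264 in *sdg33* (-4.20, SE 0.21, adjusted p = 2.34e-09). Its Arabidopsis homolog is given as the nitrate excretion transporter NAXT1, whereas its tomato description is APETALA2e, so its role is uncertain. *Solyc02g067790.3*, a high-affinity nitrate transporter gene, had 465, 326 and 233 in WT and 85, 84 and 60 in *sdg33* (-2.11, SE 0.26, adjusted p = 1.33e-05). *NRT1.1* (*Solyc08g078950.3*), homolog of the Arabidopsis nitrate transporter and sensor, went the other way below the fold-change cut-off, with 4353, 3333 and 2244 in WT and 6222, 5398 and 6219 in *sdg33* (0.89, SE 0.20, adjusted p = 0.00209).

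Genes for the handling of amino acids included 2 glutamine dumpers, small membrane proteins that promote amino acid export in Arabidopsis. *Solyc12g096490.1* had 6, 14 and 10 in WT and 290, 219 and 194 in *sdg33* (4.47, SE 0.41, adjusted p = 1.03e-06), and its neighbour *Solyc12g096480.1* had 6, 1 and 2 and 38, 57 and 34 (3.63, SE 0.53). A gene model named asparagine synthetase 2 (*Solyc01g087035.1*) had 3, 2 and 6 in WT and 35, 33 and 38 in *sdg33* (3.05, SE 0.54). Glutamate decarboxylase (*Solyc01g005000.3*), which makes GABA from glutamate, fell from 1422, 2608 and 1661 to 400, 316 and 378 (-2.33, SE 0.25, adjusted p = 3.58e-06). The amino acid transporter *Solyc03g013440.3* was called higher (2.44, SE 0.85, adjusted p = 0.0277) on values of 3, 26 and 11 against 63, 58 and 54, and lost the call when any 1 *sdg33* library at -N or WT replicate 1 was left out, with adjusted p-values of 0.059 to 0.121.

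All 3 genes described as adenylylsulfate reductases, the enzyme that commits sulphate to cysteine synthesis, were among the 4 named for the strongest N-dependent decrease. *Solyc02g080640.3* had 9706, 6620 and 8230 in WT and 1236, 1264 and 922 in *sdg33* at -N (-2.84, SE 0.18, adjusted p = 1.97e-08), against 20008, 14439 and 19084 and 11890, 15713 and 12094 at +N (-0.43, adjusted p = 0.0683). The 2 others, *Solyc02g032860.3* and *Solyc03g031620.3*, had log2 fold changes of -3.54 and -3.42 at -N and -1.14 and -1.64 at +N. The differences between -N and +N were -2.41, -2.40 and -1.78 in the same order, with adjusted p-values of 2.66e-04, 6.31e-04 and 0.00256. As members of 1 gene family they may share reads. The medium at -N held more sulphate than that at +N, so for these genes the effects of N and of sulphate supply cannot be told apart. In roots at -N they fell as well, with log2 fold changes of -3.50, -3.43 and -3.15. The other gene named by this rule was *Solyc06g071830.2*, a BTB and TAZ domain protein, with 1270, 1388 and 1469 in WT and 26, 24 and 15 in *sdg33* (-5.96, SE 0.23, adjusted p = 2.34e-10).

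**Figure D4:**
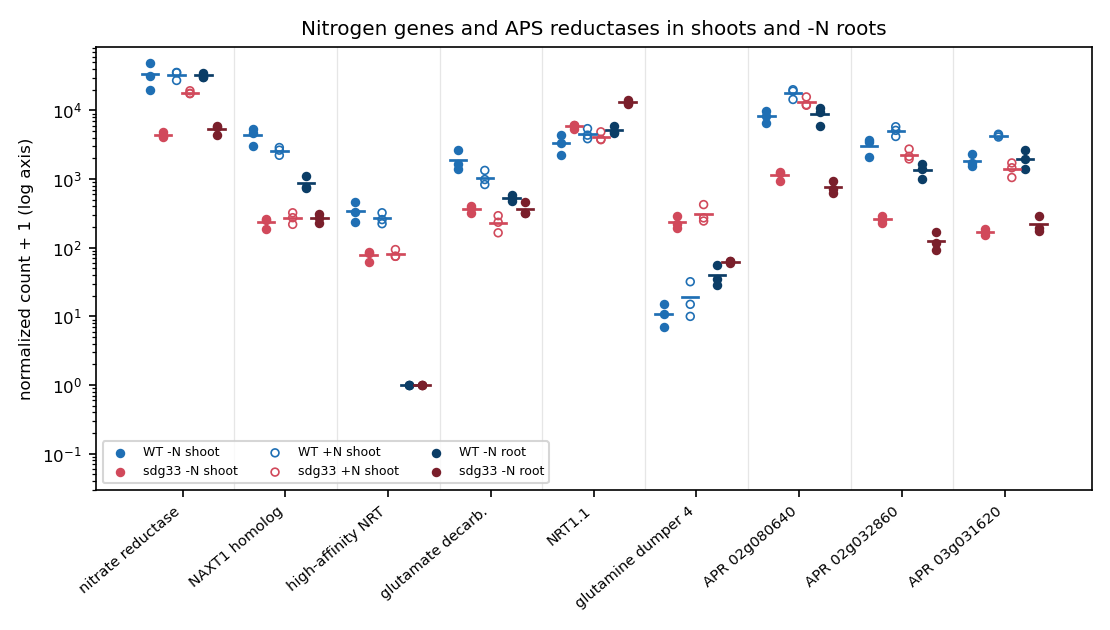
Normalized count + 1 per library (log axis) for 6 nitrogen genes and 3 adenylylsulfate reductase (APR) genes in WT (blue) and *sdg33* (red) shoots at -N (filled) and +N (open) and roots at -N (dark), each point 1 library and each bar the mean of 3. NAXT1 names the Arabidopsis homolog of *Solyc06g075510.3*. Nitrate reductase and the APR genes are lowest in *sdg33* at -N in both organs, for example 4156 to 4780 in shoots and 4322 to 6008 in roots for nitrate reductase, where WT lies at 19773 or higher.

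Enzymes of phenylpropanoid and flavonoid synthesis, which make lignin precursors and sunscreen pigments, were mostly lower. Of 25 members tested, 16 were called lower and 6 higher, with a median log2 fold change of -2.58. A flavonoid hydroxylase of the cytochrome P450 family (*Solyc11g066580.2*), which leads to blue anthocyanins, had 3159, 2704 and 3542 in WT and 142, 158 and 156 in *sdg33* (-4.35, SE 0.19, adjusted p = 7.29e-10). A chalcone isomerase family gene (*Solyc05g052240.3*) had 5989, 5576 and 5996 in WT and 803, 754 and 915 in *sdg33* (-2.83, SE 0.12, adjusted p = 5.01e-10). The groups were tight and wide apart in both genes.

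The members called higher were led by enzymes of another branch, which joins hydroxycinnamic acids to tyramine in the response to wounds and pathogens. The tyramine hydroxycinnamoyl transferase gene *Solyc08g068700.1* had 254, 206 and 152 in WT and 7856, 7856 and 6978 in *sdg33*, 37.1 times the WT mean (5.23, SE 0.17, adjusted p = 6.18e-11). Its neighbour *Solyc08g068770.2* had 128, 31 and 60 in WT and 480, 416 and 320 in *sdg33* (2.67, SE 0.39). The former difference was larger at -N than at +N by 2.12 (SE 0.23, adjusted p = 3.58e-04).

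Cytochromes P450, a large family of oxidases, had 13 called higher and 12 lower of 36 tested and a median log2 fold change of 0.19. The sign of this median was not stable, at -1.93 with a mean of at least 50 (7 higher and 9 lower of 21), -0.33 with no filter, -0.10 without *sdg33* replicate 2 or WT replicate 2 and 1.07 without WT replicate 3. *Solyc10g078240.2*, homolog of the Arabidopsis hydroxylase of lignin precursors, fell from 5433, 5145 and 5520 to 646, 646 and 592 (-3.09, SE 0.11, adjusted p = 1.10e-10). *Solyc07g055440.2* rose from 8, 6 and 4 to 160, 198 and 190 (4.75, SE 0.46) and *Solyc04g063245.1* from 27, 6 and 21 to 302, 259 and 267 (4.09, SE 0.39). Glycosyltransferases, which attach sugars to hormones and flavonoids, had 17 called lower and 7 higher of 34 tested, with a median of -1.99, and 3 called higher with a pseudocount of 10 or a mean of at least 50. The abundant *Solyc11g066670.1* fell from 10276, 9598 and 9408 to 1718, 1938 and 1952 (-2.39, SE 0.11, adjusted p = 8.60e-10), while *Solyc07g043150.1* and *Solyc02g091370.2* rose, with log2 fold changes of 2.66 and 2.41.

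Auxin genes were taken as SAUR genes and other auxin genes, and each group held genes called in both directions. SAUR genes are small, rapidly induced auxin-response genes tied to cell expansion. Of 31 SAUR members only 18 passed the filter on low values, and of these 7 were called higher and 3 lower. The only abundant SAUR gene called was *Solyc06g053260.1*, with 658, 402 and 280 in WT and 3008, 2428 and 2278 in *sdg33* (2.60, SE 0.24, adjusted p = 9.92e-07). The 6 others called higher stood at 41 or below in all 6 libraries. Among these, *Solyc01g110800.3*, *Solyc11g011670.1* and *Solyc10g018340.1*, were listed at 0 in all 3 WT libraries and had 12 to 13, 14 to 26 and 9 to 20 in *sdg33*. Genes that are near zero in one genotype and pass the filter through the other had to differ, so the SAUR count is no measure of the family as a whole. The count called higher was 1 with a pseudocount of 10 or a mean of at least 50 and 16 with no filter.

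Of the SAUR genes that the study's text names, *Solyc07g066560.1* had 102, 86 and 125 in WT and 279, 354 and 280 in *sdg33* (1.54, SE 0.26, adjusted p = 2.76e-04), and *Solyc01g091030.3* had 350, 300 and 433 and 626, 659 and 614 (0.82, SE 0.22, adjusted p = 0.00723). *Solyc01g096340.3*, with 1018, 740 and 766 against 786, 717 and 720, overlapped between the genotypes at -N (-0.17, adjusted p = 0.539), while at +N its log2 fold change was -1.75. Its effect differed between -N and +N by 1.58 (SE 0.30, adjusted p = 0.0172). The SAUR genes called lower were weak, at 364 or below in all WT libraries, and 2 of the 3, *Solyc11g069095.1* and *Solyc01g110970.3*, lost the adjusted p when 1 library was left out, with values of 0.118 without *sdg33* replicate 2 and 0.0539 without WT replicate 2 for the former and 0.0886 to 0.171 in 4 cases for the latter.

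Other auxin genes had 9 called higher and 3 lower of 14 tested, with a median of 2.51. The dormancy- and auxin-associated genes, which in other plants are high in resting buds and in starved tissue, were abundant. *Solyc02g077880.3* rose from 4096, 4108 and 5862 to 23348, 21550 and 21854 (2.27, SE 0.16, adjusted p = 9.08e-08), and *Solyc01g099840.3* from 1760, 1773 and 2626 to 11966, 11252 and 10471 (2.47, SE 0.16). An auxin efflux carrier family gene (*Solyc12g095750.2*) fell from 2639, 1793 and 1682 to 192, 123 and 175 (-3.63, SE 0.19, adjusted p = 3.60e-09). The Aux/IAA repressor gene *Solyc03g120390.3* fell from 1732, 1712 and 2346 to 179, 189 and 210 (-3.31, SE 0.21).

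Glutaredoxins, small redox proteins of which a plant-specific class responds to nitrate in Arabidopsis, were higher. Of 11 members tested, 5 were called higher and none lower at -N, with a median of 1.94, and all 11 were called higher at +N, with a median of 3.34. All were low in WT, and at -N the calls were 3 with a pseudocount of 10 (median 0.83) and 2 of 2 with a mean of at least 50. With the 6 libraries at -N alone only 5 members passed the filter, so the others entered through the +N libraries. Members low in WT that pass the filter through *sdg33* had to differ. Neither the count at -N nor that at +N thus measures the family as a whole. *Solyc01g067460.2* had 1, 0 and 0 in WT and 196, 288 and 176 in *sdg33* at -N (7.42, SE 0.40), and 24, 46 and 38 and 336, 310 and 173 at +N (2.88). It was the 1 member whose effect differed between the N conditions, by 4.54 (SE 0.56, adjusted p = 9.18e-04). *Solyc01g067440.3*, *Solyc06g008750.1* and *Solyc06g054570.1* had log2 fold changes of 4.19, 4.01 and 2.76 at -N, and *Solyc11g005270.1*, with overlapping libraries, 2.04 (adjusted p = 0.0381, and 0.0877 without *sdg33* replicate 1, 0.147 without *sdg33* replicate 2 and 0.173 without WT replicate 2).

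The class III peroxidases tested, secreted enzymes of cell-wall crosslinking, were higher. All 10 members that passed the filter, of 14 listed, were called higher, with a median of 3.34, and 8 to 10 with 1 library left out. With a pseudocount of 10, 5 were called and the median was 2.20, and 6 members had a mean of at least 50. With no filter, 11 of 14 were called higher and 0 lower. The study's own lists for *sdg33* shoots, drawn up regardless of N, held 9 of the 14 as higher and 2 as lower. Of the 10, 3 had a WT mean under 10 and passed the filter only through *sdg33*, so they had to differ. The summed values of all 14 listed members were 692, 404 and 687 in WT and 4754, 5803 and 3548 in *sdg33*. *Solyc02g092580.3* rose from 252, 141 and 277 to 1310, 1868 and 1049 (2.67, SE 0.24) and *Solyc02g079500.4* from 161, 194 and 237 to 2061, 1918 and 1428 (3.18, SE 0.31). In roots at -N none of the 10 passed the adjusted p, and *Solyc02g092580.3* stood at 7372 or higher in roots of both genotypes.

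Defence genes had 18 called higher and 4 lower of 30 tested, with a median of 2.37, against 9 and 2 with a pseudocount of 10 and a median of 1.53, and 8 and 2 of 12 with a mean of at least 50. A Kunitz-type protease inhibitor (*Solyc03g098730.1*) rose from 29, 14 and 26 to 182, 238 and 147 (3.02, SE 0.33) and a chitinase (*Solyc04g072000.3*) from 31, 26 and 40 to 189, 182 and 170 (2.46, SE 0.31). Those called lower included regulators and receptors, among them *WRKY44* (*Solyc10g084380.1*, -2.71) and an NBS-LRR resistance gene (*Solyc07g053010.2*, -2.14), and a proteinase inhibitor. Genes of ethylene synthesis and response had 11 called higher and 3 lower of 19 tested, with a median of 2.88. This rested on weakly expressed members, since 4 were called higher and 3 lower of 9 with a mean of at least 50, with a median of -0.14, while the median was 0.96 with no filter and 1.20 with a pseudocount of 10, where 6 were called higher. The response-factor gene *Solyc12g056980.1* rose from 79, 70 and 64 to 1836, 1761 and 1727 (4.63, SE 0.19, adjusted p = 4.86e-10), and *Solyc05g052030.1* from 352, 278 and 246 to 3444, 3220 and 3488 (3.55, SE 0.16). *Solyc08g081650.2* and *Solyc08g081670.2*, alike in description and close in place, fell by 2.37 and 2.51 on the log2 scale.

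Genes of abscisic acid response and desiccation were split, with 12 called higher and 14 lower of 33 tested and a median of -1.52, which was -2.54 with a mean of at least 50 (3 higher and 8 lower of 14), -0.74 with a pseudocount of 10 (7 and 10) and -0.78 without WT replicate 1. Abscisic acid binds its receptors, which then block protein phosphatases of type 2C. The receptor gene *PYL1* (*Solyc08g076960.1*) rose from 182, 197 and 226 to 1091, 1095 and 888 (2.34, SE 0.17, adjusted p = 1.00e-07). The phosphatase genes went down, *Solyc06g051940.3* from 1244, 760 and 1730 to 22, 21 and 32 (-5.53, SE 0.29, adjusted p = 4.00e-09) and *Solyc07g007220.3* from 3697, 3072 and 3577 to 468, 486 and 520 (-2.81, SE 0.14). The late embryogenesis abundant protein gene *Solyc06g009140.3* rose (2.76, SE 0.28), in contrast to *Solyc09g061730.2* above.

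Cell-wall genes had 10 called higher and 4 lower of 22 tested, with a median of 1.71 (1.12 with a pseudocount of 10), and both directions held members of the same families. Among xyloglucan-modifying enzymes, which loosen and rejoin wall polymers, *Solyc09g092520.3* rose from 278, 504 and 255 to 4515, 6412 and 3809 (3.86, SE 0.23, adjusted p = 1.50e-08) and *Solyc11g066270.2* fell from 2188, 1394 and 1840 to 282, 236 and 348 (-2.64, SE 0.24). Among the trichome birefringence-like proteins, which acetylate wall polymers, *Solyc07g062220.3* rose by 3.28 and *Solyc03g006220.3* had -2.84. Of 4 chromatin genes tested, 3 were called lower and 1 higher, but 1 and 0 with a pseudocount of 10. The gene *Solyc09g009220.3*, described as a histone-lysine methyltransferase of the SETD1B kind, fell from 1315, 1127 and 1111 to 158, 130 and 133 (-3.07, SE 0.14, adjusted p = 1.06e-09).

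A large set of nuclear gene models that resemble plastid genes was lower in *sdg33*. These models carry the names of proteins encoded in the chloroplast, such as Ycf1, Ycf2 and ribosomal protein L2. Reads from the chloroplast genome and from its copies in the nucleus can hardly be told apart, so the place their reads came from is uncertain. Of 101 models 83 passed the filter, 51 were called lower and 4 higher, and the median log2 fold change was -2.28 at -N and -2.22 at +N, with no member passing the test of a difference between them. The summed values of all 101 models took 0.263% to 0.337% of the WT libraries and 0.0695% to 0.0887% of the *sdg33* libraries at -N. At +N the ranges were 0.256% to 0.394% and 0.0569% to 0.0900%. The decrease was thus present under both N conditions and opposite in direction to the nuclear antenna genes.

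Called models went in both directions. For ribosomal protein L2, *Solyc05g023730.1* fell from 842, 900 and 424 to 52, 59 and 68 (-3.51, SE 0.25) and *Solyc06g009985.1* from 282, 264 and 412 to 36, 24 and 23 (-3.48, SE 0.26). *Solyc10g080620.1*, a plastid NAD(P)H dehydrogenase model, rose from 172, 82 and 152 to 1434, 1458 and 1324 (3.43, SE 0.27, adjusted p = 1.82e-07), and the Ycf2 model *Solyc05g046270.3* from 11, 15 and 40 to 264, 289 and 226 (3.70, SE 0.41). The counts of calls were 49 to 51 lower and 3 or 4 higher with any 1 library left out, 29 and 2 with a pseudocount of 10, and 22 and 2 of 38 with a mean of at least 50.

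Called genes also occurred side by side. In the order of gene models, 15 runs of at least 3 consecutive models were called in the same direction, with 50 of the 1546 called genes in all. Whether this exceeds the number of runs that the shares of called genes alone would give was not tested. The longest held 6 models on chromosome 11, *Solyc11g021260.1* to *Solyc11g021310.1*, all named Ycf1 and all lower, with log2 fold changes from -5.02 to -3.81. Pieces of 1 inserted plastid gene may share reads. The antenna genes of chromosome 2 made a run of 4, and a run of 4 lower models on chromosome 4, *Solyc04g014930.2* to *Solyc04g014960.3*, included 2 alpha 1,4-glycosyltransferase family genes, with log2 fold changes of -2.58 to -2.03.

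Of 104 miRNA loci, 11 passed the filter. Reads over a locus measure the precursor transcript and any overlapping gene, not the mature miRNA. The *sly-MIR156a* locus had 232, 188 and 76 in WT and 20, 23 and 18 in *sdg33* (-2.82, SE 0.54, adjusted p = 6.97e-04), and *sly-MIR167b* had 42, 37 and 8 and 179, 196 and 182 (2.93, SE 0.48, adjusted p = 1.80e-04). In Arabidopsis, miR156 holds back the passage to adult growth and miR167 targets auxin response factors. The loci *sly-MIR172a* (-1.30), *sly-MIR482b* (1.65) and *sly-MIR1919a* (1.80) also had an adjusted p under 0.05, but each lost it when 1 of the libraries was left out, with *sly-MIR482b* at 0.0585 without *sdg33* replicate 2 and 0.0603 without WT replicate 2, *sly-MIR1919a* at 0.0879 without *sdg33* replicate 2, and *sly-MIR172a* at 0.0628 to 0.155.

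To ask how much of the -N difference depended on the N condition, the 6 libraries at +N, which share none with those at -N, were fitted together with them. At +N, 578 genes (2.79%) were called higher and 593 (2.86%) lower. Of the 804 genes called higher at -N, 784 had the same sign at +N and 404 were also called higher there, and of the 742 called lower, 730 and 358. Their median log2 fold changes were 2.69 at -N and 2.09 at +N, and -2.55 and -1.97. Since these genes were picked for a large value at -N, a smaller median at +N follows in part from the choice. Across all genes tested, Pearson's r between both log2 fold changes was 0.803 and Spearman's rho 0.768.

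The direct test of -N against +N passed for 413 genes (1.99%), of which 282 had a more positive and 131 a more negative difference at -N. In 283 of these 413 the absolute difference between genotypes was larger at -N. This count rests on few libraries. It was 87 and 52 without *sdg33* replicate 1, 123 and 69 without replicate 2 and 118 and 67 without replicate 3 at -N, and 507 without WT replicate 1 for the positive side and 554 and 266 without WT replicate 3. Besides the antenna, chlorophyll and sulphate genes, the genes named by this rule included *Solyc01g108910.3*, described as a maternal effect embryo arrest protein, which had 1435, 1154 and 1318 in WT and 9211, 9676 and 8168 in *sdg33* at -N and differed by 1.84 from +N (SE 0.19, adjusted p = 2.66e-04).

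**Figure D5:**
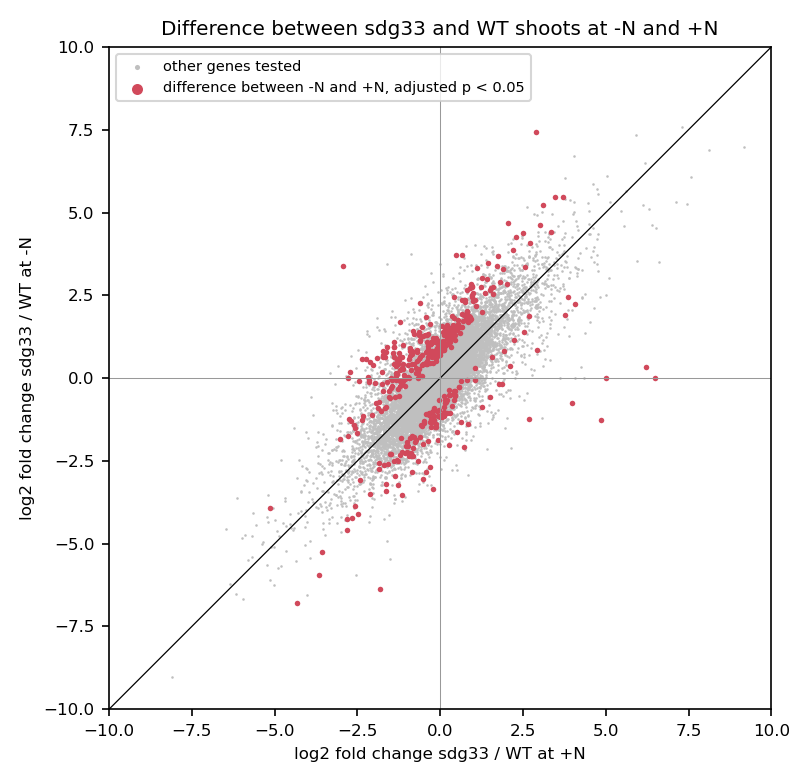
Log2 fold change of *sdg33* over WT shoots at -N (vertical) against +N (horizontal) for 20713 genes, each point 1 gene. Red points are the 413 genes whose effects differ between the N conditions (adjusted p under 0.05), and the diagonal marks equal effects. Most genes lie along the diagonal (Pearson's r 0.803), with 282 red points above it and 131 below it.

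Some genes were called at +N and not at -N. *Solyc08g077480.3*, a senescence-associated family protein, had 1496, 1405 and 1783 in WT and 1474, 1493 and 1360 in *sdg33* at -N (-0.11, adjusted p = 0.603), but 1014, 1380 and 1126 against 300, 289 and 209 at +N (-2.14). *Solyc03g117675.1*, described as a DNA helicase, had log2 fold changes of 1.90 at -N and 3.78 at +N. Proline dehydrogenase (*Solyc02g089630.3*), which starts the breakdown of proline, had 124, 222 and 226 in WT and 65, 76 and 94 in *sdg33* at -N (-1.24, adjusted p = 0.0695), and 17, 4 and 2 against 35, 29 and 63 at +N (2.67, adjusted p = 0.00127). Its effect differed between the N conditions by 3.90 in the negative direction of -N (-3.90, SE 0.76, adjusted p = 0.0186). At -N its 3 *sdg33* libraries lay below those of WT, and the decrease there passed in 3 alternatives, with an adjusted p of 0.00759 with the 6 libraries at -N alone, 0.0372 with all 18 shoot libraries and 0.0118 with a pseudocount of 10.

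Opposite directions at -N and +N, each with an adjusted p under 0.05, were found in 51 genes, against 6152 in the same direction. The clearest, all without a description in the lists, were *Solyc11g017470.2* (-0.88 at -N and 1.28 at +N), *Solyc10g006900.3* (1.14 and -0.60), *Solyc02g089620.3* (-1.39 and 0.83), the listed neighbour of proline dehydrogenase, and *Solyc11g005190.2* (-0.57 and 1.51). For *Solyc02g089620.3*, WT had 7372, 9211 and 6485 and *sdg33* 2570, 2778 and 3436 at -N, while at +N WT had 1298, 1312 and 1234 and *sdg33* 1880, 2206 and 2822. WT thus spanned a wider range between the N conditions than *sdg33*.

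In the roots at -N the same genotypes differed far less. There, 223 of 21831 genes tested (1.02%) were called higher and 124 (0.568%) lower, with 7.87% higher and 7.05% lower by the adjusted p alone, and the median absolute log2 fold change was 0.291 against 0.569 in shoots in the same fit. The test of shoots against roots passed for 6993 genes (32%). Of the genes called higher in shoots, 774 were tested with the roots, 491 had the same sign there and 56 were called higher in both organs. Of those called lower, 712 were tested, 499 had the same sign and 39 were called lower in both. Across genes, Pearson's r between the 2 organs was 0.263 and Spearman's rho 0.257. Whether roots and shoots came from the same plants is not stated, and they may not be independent.

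Nitrate reductase was 1 of the genes lower in both organs, with 30399, 35396 and 30993 in WT roots and 5704, 6008 and 4322 in *sdg33* roots (-2.60, adjusted p = 3.13e-05), and its effect did not pass the test between organs (-0.23, adjusted p = 0.660). *NRT1.1* was higher in both, with 4793, 5879 and 4678 in WT roots and 13986, 12602 and 12820 in *sdg33* roots (1.37, adjusted p = 4.82e-04). Of the 16 clock and B-box members tested in roots, 3 were lower and 1 was higher by the adjusted p, and the group median was -0.30. The FKF1 homolog fell in roots from 448, 454 and 422 to 160, 137 and 208 (-1.41, adjusted p = 5.81e-04) and *Solyc12g006240.2* from 743, 583 and 622 to 326, 382 and 450 (-0.75, adjusted p = 0.00612). The PRR5 homolog, at 825, 676 and 720 against 466, 682 and 720, overlapped between the genotypes. The PsbP-like gene *Solyc01g087040.2* rose in roots too, from 21, 24 and 30 to 176, 175 and 190 (2.82, adjusted p = 1.39e-06), less than in shoots by 1.87 (adjusted p = 1.50e-04).

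A few genes were called in opposite directions in the 2 organs. *Solyc05g025890.2*, an N-acyltransferase, fell in shoots from 732, 565 and 588 to 139, 150 and 174 (-2.02) and rose in roots from 44, 47 and 28 to 414, 678 and 678 (3.86). *Solyc05g052670.1*, an acyltransferase of another family, rose in shoots from 37, 25 and 87 to 266, 297 and 162 (2.41) and fell in roots from 223, 308 and 246 to 31, 15 and 19 (-3.57). *Solyc06g082040.2*, a PHD finger transcription factor, fell in shoots from 77, 178 and 38 to 3, 7 and 2 (-4.16) and rose in roots from 8, 22 and 21 to 136, 146 and 145 (3.11). The differences between organs were -5.87, 5.98 and -7.27, with adjusted p-values of 4.94e-07, 2.16e-05 and 3.84e-05. *Solyc02g091130.3*, described as an ATP synthase subunit, was called lower in shoots (-2.86, adjusted p = 0.0251) and higher in roots (2.33) on root values of 37 or below, and lost its adjusted p in shoots without 1 of 4 libraries (0.0595 to 0.0800).

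Shoots of *sdg34* at -N were compared with those of *sdg33* directly, since both mutants share the WT libraries. Of 20468 genes tested, 112 (0.547%) had an adjusted p under 0.05, 28 higher and 84 lower in *sdg33*. Of the 804 genes called higher in *sdg33*, 16 differed between the mutants, and of the 608 tested among those called lower, 16. The other called-lower genes were removed by the filter, which here had no WT libraries. Against WT at -N, genes called higher in *sdg33* had a median log2 fold change of 2.65 in *sdg34* and 2.69 in *sdg33*. For genes called lower the medians were -2.27 and -2.55. Both mutants were set against the same WT libraries, so these medians are not independent. *Solyc04g007000.1*, the AP2/B3 factor, was lower in *sdg33* than in *sdg34*, where it had 1922, 1974 and 1955 (log2 difference -1.30, adjusted p = 0.00534). The adenylylsulfate reductase gene *Solyc02g032860.3* had 292, 253 and 226 in *sdg33* and 458, 433 and 400 in *sdg34* (-0.75, adjusted p = 0.0242), and *Solyc11g017470.2* had 801, 757 and 700 and 1346, 1208 and 1424 (-0.82, adjusted p = 0.00499).

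For the antenna and photosystem genes the direct test passed for none of the 9. *Solyc01g087040.2* had 4567, 4733 and 4122 in *sdg33* and 3936, 3198 and 3632 in *sdg34*, groups that did not overlap, with an adjusted p of 0.166. Nitrate reductase had 4290, 4780 and 4156 and 3916, 5608 and 3428, which overlapped (adjusted p = 0.882). The *SDG33* transcript had 302, 204 and 273 in *sdg34*, between *sdg33* and WT and overlapping with *sdg33*. The count of 112 fell to 13 without *sdg33* replicate 1, to 53 without *sdg33* replicate 2, to 17 without *sdg34* replicate 2 and to 23 and 31 without *sdg34* replicates 3 and 1, and a p that misses the threshold does not show that the mutants act alike.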

How the data were processed

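RNA was sequenced from pools of shoots or roots of WT, *sdg33* and *sdg34* tomato plants at -N and +N, with 3 libraries per group. As the study's methods describe, the authors mapped paired-end reads with BBmap to tomato genome build 3.0, counted them with featureCounts on ITAG3.2 gene models and miRBase loci, and tested genes with DESeq2. Full-quantile normalization (EDASeq) is described there for the values drawn in heatmaps. Strandedness of the counting is not given in the sources used here. The deposited values are a score, whole numbers that the authors obtained by rounding normalized counts, and all 36 libraries hold the same sorted values with a total of 19667069, so sequencing depth is unknown and no count test was used. Full-quantile normalization removes differences in the spread of values between libraries, including any shared shift.

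Values were transformed as log2(value + 1). Genes that reached 10 in 3 or more of the fitted libraries were tested with limma 3.58.1 in R 4.3.3 (moderated test with a variance trend, two-sided), with p-values adjusted by Benjamini-Hochberg over all genes tested. The 12 shoot libraries of WT and *sdg33* entered 1 fit with 4 group means, from which the contrasts at -N, at +N and their difference were taken. Shoots and roots at -N, and *sdg33* and *sdg34* shoots, were fitted likewise. A called gene had an adjusted p under 0.05 and an absolute log2 fold change of at least 2. An exact permutation test of 3 against 3 libraries cannot go below 0.1, so none is given. P-values measure the spread between pools of plants. Neither the labels nor the methods say whether libraries with the same replicate number belong together, and the main fits held no replicate block. For WT and *sdg33* at -N, the correlations of same-numbered deviations were -0.02, -0.06 and -0.04, which cannot show that the design was unpaired.

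Gene groups, descriptions and Arabidopsis homologs came from the study's supplementary lists and text, whose fold changes and p-values were not used. Named genes were those in the study's text, the 8 largest described changes per direction with a mean of at least 100 in the higher group, called members of the gene groups with the smallest p (all called members for clock, heat-shock, SAUR, glutaredoxin and nitrogen genes), the strongest differences between -N and +N and between organs, changed miRNA loci and the 3 longest runs of neighbouring genes. The 8 per direction were also required to have libraries that do not overlap between the genotypes. The comparison, gene groups and tests were chosen with earlier results of these data known. Alternatives varied the samples in the fit, the filter, the pseudocount, the scaling, the weights, the fold-change cut-off, a replicate block and each library. The fits were also run on simulated data with normal noise, where a gene had the same SD in all groups. Changes were planted only in genes above a set WT level. Weak genes and the unequal spread between groups were thus not covered.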

Additional observations from a re-analysis of the deposited data

Results flagged for a closer look

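The results below differed between conditions, organs or mutants by a test of the difference itself (limma, adjusted p under 0.05). The difference between *sdg33* and WT shoots was more positive at -N than at +N for 282 genes and more negative for 131. It differed between shoots and roots at -N for 6993 genes (32% of those tested). Among the 158 named genes that could be tested in both organs, it differed for 120. Many named genes were chosen for differences in shoots at -N, and some by the organ test. Their higher share follows in part from that choice. Between *sdg33* and *sdg34* shoots at -N, 112 genes differed.

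Of the named genes, 36 differed between the N conditions, 22 with a more positive and 14 with a more negative log2 difference at -N. Some of these were named by that same test, so their share exceeds the 1.99% of all genes tested in part by construction. Values are the log2 fold change at -N minus that at +N. Among antenna and photosystem genes they were 1.59 for *Solyc08g067320.2*, 1.11 for *Solyc01g105050.3*, 1.35 for *Solyc02g070970.1*, 2.03 for *Solyc02g070990.1*, 1.15 for *Solyc02g071000.1*, 1.61 for *Solyc06g069730.3*, 1.22 for *Solyc11g008480.2* and 2.65 for *Solyc01g087040.2*. Those of chlorophyll synthesis and antenna insertion were 3.08 for *Solyc12g013710.2* and 1.55 for *Solyc02g087400.1*.

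Other genes with a more positive difference at -N were the glutaredoxin *Solyc01g067460.2* (4.54), the SAUR gene *Solyc01g096340.3* (1.58), the tyramine transferase *Solyc08g068700.1* (2.12), the ethylene response factor *Solyc12g056980.1* (1.63), and the wall genes *Solyc09g092520.3* (1.67) and *Solyc07g062220.3* (1.38). The same held for *Solyc01g108910.3* (1.84), *Solyc08g077480.3* (2.04), *Solyc03g083770.1* (1.1), *Solyc07g043395.1* (0.86), *Solyc10g086240.2* (1.05) and *Solyc10g006900.3* (1.74).

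More negative differences at -N were found for nitrate reductase *Solyc11g013810.2* (-1.99), the adenylylsulfate reductases *Solyc02g080640.3* (-2.41), *Solyc02g032860.3* (-2.40) and *Solyc03g031620.3* (-1.78), the BTB and TAZ domain gene *Solyc06g071830.2* (-2.29) and proline dehydrogenase *Solyc02g089630.3* (-3.90). The others were *Solyc07g064410.1* (-2.46), *Solyc11g005310.1* (-4.54), *Solyc10g078240.2* (-0.68), *Solyc03g117675.1* (-1.88), *Solyc02g082270.3* (-0.80), *Solyc11g017470.2* (-2.16), *Solyc02g089620.3* (-2.21) and *Solyc11g005190.2* (-2.08).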

How the results depend on the processing

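No fold change of a named gene reversed its direction at -N under any alternative run, but the group medians of nitrogen, ethylene and cytochrome P450 genes changed sign, to -2.11, -0.14 and -1.93 with a mean of at least 50. Genes called higher and lower at -N numbered 2450 and 2543 with an absolute log2 fold change of at least 1, 456 and 492 with a mean of at least 50, and 415 and 470 with a pseudocount of 10. Leaving out 1 library gave 686 to 909 higher and 704 to 801 lower, and 4332 to 5516 and 3858 to 4682 by the adjusted p alone. Genes more positive at -N than at +N numbered 611 with all 18 shoot libraries, 565 with array weights and 87 to 554 with 1 library left out. Genes more negative numbered 317, 249 and 52 to 266. The log2 fold change of *SDG33* ranged from -1.54 to -1.24, and the genes differing between organs from 5380 to 8118. For *sdg33* against *sdg34* the count was 60 with no filter and 13 to 78 with 1 library left out. With the replicate block that count was 59, and the counts called at -N were 800 and 740. The block also took 2 named genes past an adjusted p of 0.05, *Solyc01g110970.3* (0.0501) and *Solyc11g005270.1* (0.0534). Of 161 named genes, 150 kept their direction and side of the threshold at -N under every alternative, and 10 lost the adjusted p under at least 1. Causes were not tested. Leaving out libraries for the organ and mutant comparisons, and recounting the gene groups, were chosen after seeing the data. Genes near zero in one genotype depend most on the filter and the pseudocount, and with 3 pools per group and unknown depth small differences of weak genes were not detectable.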
